A study of Mus musculus with 9 samples.

Results

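The 47 genes described here are a module of G2 and mitosis genes, which are used by a cell between the end of DNA replication and the separation of its daughter cells. They were chosen by gene symbol, with earlier results of these data known, and all 47 were found among the 31053 genes of the count table. Bone marrow was taken from the femurs of untreated female mice of 3 inbred or hybrid strains, NZB and NZW, which stand for New Zealand Black and White, and the F1 hybrid of both (NZBWF1), at 9 to 10 weeks of age, with 3 mice per strain. NZBWF1 mice are a model of systemic lupus erythematosus, and the parent strains served as the reference. Single cells were captured by the 3′ droplet method, in which each counted molecule (UMI) is 1 captured 3′ end of a transcript, so levels are given as CPM, the number of UMIs of a gene per 1000000 UMIs of all genes in a class and mouse and are not divided by gene length.

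Entry into mitosis is driven by the kinase Cdk1 bound to cyclin B, and exit from it by the anaphase-promoting complex, a ubiquitin ligase that marks cyclin B and other mitotic proteins for degradation. Between these steps chromosomes condense, kinetochores assemble on centromeres and capture spindle microtubules, and Aurora kinases correct wrong attachments before cytokinesis. Transcripts of these genes accumulate late in the cell cycle, largely through the DREAM and MuvB complexes with B-Myb and FoxM1, which act at CHR elements, and through NF-Y, which binds CCAAT boxes. In bone marrow, dividing cells are found among committed precursors, whereas mature neutrophils, resting lymphocytes and plasma cells have left the cell cycle.

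The promoter letters below are shown because a shared promoter architecture is a feature that the choice by symbol did not use. RefSeq windows (mouse GRCm38.p6) from 250 bases before to 50 bases after the gene start were found for 41 of the 47 members. The CHR element was searched as the core TTTGAA, which reads TTCAAA on the opposite strand, and as the variant TTTAAA, which is its own reverse complement. The box bound by NF-Y was searched as CCAAT, which reads ATTGG on the opposite strand. TTTGAA was held by 28 of the 41 windows (68.3%), against 18.1% of all 27025 windows. CCAAT was held by 31 (75.6%), against 37.9% of all windows, and at least 2 copies by 25 (61.0%), against 12.2%. TTTAAA was held by 10 (24.4%), against 13.2%. Below, the 250 bases before the start are printed for 6 members, with the matches to the CHR core and to the CCAAT box, on either strand, in capitals. Ube2c, Ccnb2, Cdc20 and Top2a stand for the degradation, kinase and chromosome roles, Hmgb2 is the most abundant member, and Hjurp was called between NZB and NZW in the most classes. Ube2c lies on the plus strand at chr2:164769679-164769928, Ccnb2 on the minus strand at chr9:70421555-70421804, and Cdc20 on the minus strand at chr4:118437344-118437593. Top2a lies on the minus strand at chr11:99024190-99024439, Hmgb2 on the plus strand at chr8:57511593-57511842, and Hjurp on the minus strand at chr1:88277580-88277829.
Ube2c: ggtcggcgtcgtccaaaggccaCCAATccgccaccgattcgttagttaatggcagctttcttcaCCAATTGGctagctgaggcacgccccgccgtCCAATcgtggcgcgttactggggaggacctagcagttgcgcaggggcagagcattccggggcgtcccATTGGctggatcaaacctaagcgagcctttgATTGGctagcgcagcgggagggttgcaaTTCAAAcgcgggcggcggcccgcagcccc
Ccnb2: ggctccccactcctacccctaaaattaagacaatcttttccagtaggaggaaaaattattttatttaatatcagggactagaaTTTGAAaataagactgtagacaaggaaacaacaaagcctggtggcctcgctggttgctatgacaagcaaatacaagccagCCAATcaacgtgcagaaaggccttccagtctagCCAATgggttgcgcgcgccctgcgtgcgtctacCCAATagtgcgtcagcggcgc
Cdc20: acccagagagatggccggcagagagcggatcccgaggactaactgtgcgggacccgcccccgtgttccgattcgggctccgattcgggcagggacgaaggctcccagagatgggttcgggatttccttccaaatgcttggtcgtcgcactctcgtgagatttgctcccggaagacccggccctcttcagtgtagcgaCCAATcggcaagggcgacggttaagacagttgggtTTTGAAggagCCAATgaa
Top2a: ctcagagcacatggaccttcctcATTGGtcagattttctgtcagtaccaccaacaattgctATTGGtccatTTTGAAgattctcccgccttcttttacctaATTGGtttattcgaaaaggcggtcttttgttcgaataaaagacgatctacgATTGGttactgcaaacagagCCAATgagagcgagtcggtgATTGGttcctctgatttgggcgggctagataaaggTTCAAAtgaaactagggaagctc
Hmgb2: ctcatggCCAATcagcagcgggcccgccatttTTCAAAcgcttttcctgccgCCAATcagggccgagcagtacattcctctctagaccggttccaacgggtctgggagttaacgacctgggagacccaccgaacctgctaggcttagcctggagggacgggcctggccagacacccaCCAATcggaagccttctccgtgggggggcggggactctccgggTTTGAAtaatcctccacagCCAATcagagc
Hjurp: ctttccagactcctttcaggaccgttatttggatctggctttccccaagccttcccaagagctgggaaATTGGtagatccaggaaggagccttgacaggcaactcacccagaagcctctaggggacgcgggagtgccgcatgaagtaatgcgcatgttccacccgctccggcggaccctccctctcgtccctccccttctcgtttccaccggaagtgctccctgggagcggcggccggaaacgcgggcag

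In these windows Ube2c held 6 CCAAT matches, of which the pair written CCAATTGG overlaps, and Top2a also held 6. Hmgb2 held 4, Ccnb2 3 and Cdc20 2, whereas the Hjurp window held 1, at 182 bases before the start, and its TTTGAA lay after the start. Over the 41 member windows the matches were placed close to the start. CCAAT stood at 63.4 matches per 100 windows in the bases from 100 to 51 before it and at 65.9 in the last 50, against 14.3 and 10.2 over all windows. TTTGAA stood at 43.9 matches per 100 windows in the first 50 bases after the start, against 2.24. The member windows were also richer in G and C (median 59.7% against 52.7%). A match is a description of the letters, and binding was not measured here.

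The files held 68444 called cell barcodes, of which 39051 were kept; a kept cell held 1000 or more UMIs from 500 or more genes, and mitochondrial UMIs made up 10% of them or less. These came to 8106539 to 18663189 UMIs per mouse, and 170 of 38879 kept barcode sequences occurred in more than 1 library. Cells were assigned to classes by 20 fixed lists of marker genes, none of which holds a member, and cells passing lists of unlike classes were left out. UMIs were summed per class and mouse wherever a mouse had at least 10 cells of the class, and 16 classes had sums from all 9 mice. Differences between sums are log2 fold changes from the edgeR quasi-likelihood fit. The standard error printed with a fold change is its size divided by the square root of the F statistic of its test. The p-values were adjusted over all genes tested in that comparison, with a call at an adjusted p under 0.05. In such sums, fewer dividing cells and less RNA per dividing cell cannot be told apart. RNA in droplets with fewer than 100 UMIs, a measure of free RNA, held 5797 to 8588 CPM of the members. Levels below or above this range can hold a part from free RNA, which was not tested.

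The summed level of the 47 members differed widely between classes. It was highest in B-lineage cells with a UMI of the recombination genes Rag1 or Rag2 (Rag-B-like), at 20717 ± 7142 CPM (mean ± SD, n = 9 mice). B-lineage cells with no stage marker held 17703 ± 2370, those with surrogate light chain genes held 14312 ± 1604, and late-erythroid-like cells, which carry globin transcripts, held 13224 ± 642. The order of the first 2 depended on the strain. Rag-B-like cells held 26231 CPM in NZB, over 16, 22 and 16 cells per mouse, and 18767 in NZW, against 18317 and 16240 without a stage marker, whereas in NZBWF1 they held 17154 against 18552. The spread in Rag-B-like cells overlapped the neighbouring B-lineage classes, whereas the late-erythroid-like sums were close to each other in all 9 mice. In the middle stood monocyte-like cells at 8339 ± 2140, secondary-granule-neutrophil-like cells at 8823 ± 546, and early-erythroid-like cells at 7700 ± 496. Granulocyte-monocyte-precursor-like cells, which express the primary granule genes, held 5046 ± 674. Mature-B-like cells at 3585 ± 1635, plasmacytoid-dendritic-like cells at 3213 ± 1702, late-neutrophil-like cells at 3190 ± 618 and T-like cells at 2956 ± 1954 did not differ beyond their spread, and all lay below the free RNA. The lowest level was that of plasma-like cells, at 282 CPM over 6 mice. CPM are relative to all UMIs, and plasma-like cells had a median of 9992 UMIs per cell, against 1285.5 in T-like cells.

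**Figure D1:**
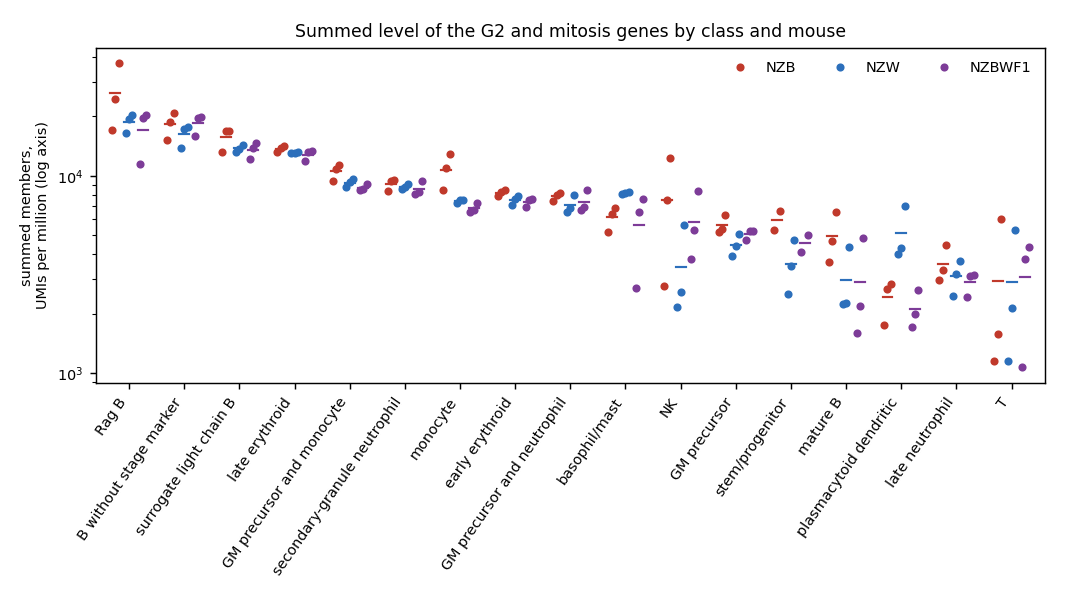
Summed level of the 47 members by class, in CPM on a log axis; each point is 1 mouse, coloured by strain, and each short line is the mean of a strain. The B-lineage precursor classes and late-erythroid-like cells stand highest and plasmacytoid-dendritic-like, late-neutrophil-like and T-like cells lowest among the 17 classes drawn, and the NZB mice stand above the others in monocyte-like cells while the NZW mice stand highest in plasmacytoid-dendritic-like cells.

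The members shared their highest and lowest classes to a large part. Over the 16 classes with 9 mice, 37 of the 47 had their highest mean level in Rag-B-like cells, 5 in B-lineage cells without a stage marker, 3 in late-erythroid-like cells and 2 in cells with surrogate light chain genes. These means weigh each mouse alike, and the 3 NZB mice had only 16, 22 and 16 Rag-B-like cells. The 3 highest in late-erythroid-like cells were Cdk1, the survivin gene Birc5, and Rangap1, whose product stimulates GTP hydrolysis by Ran. The lowest mean level was in late-neutrophil-like cells for 39 members and in T-like cells for 6. Hmgb2 and Hjurp were lowest in plasmacytoid-dendritic-like cells. The library labelled replicate 1 held the lowest summed level of its strain in all 3 strains in 6 of these 16 classes, among them the 3 B-lineage precursor classes, and what this number marks was not given in the sources used here.

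**Figure D2:**
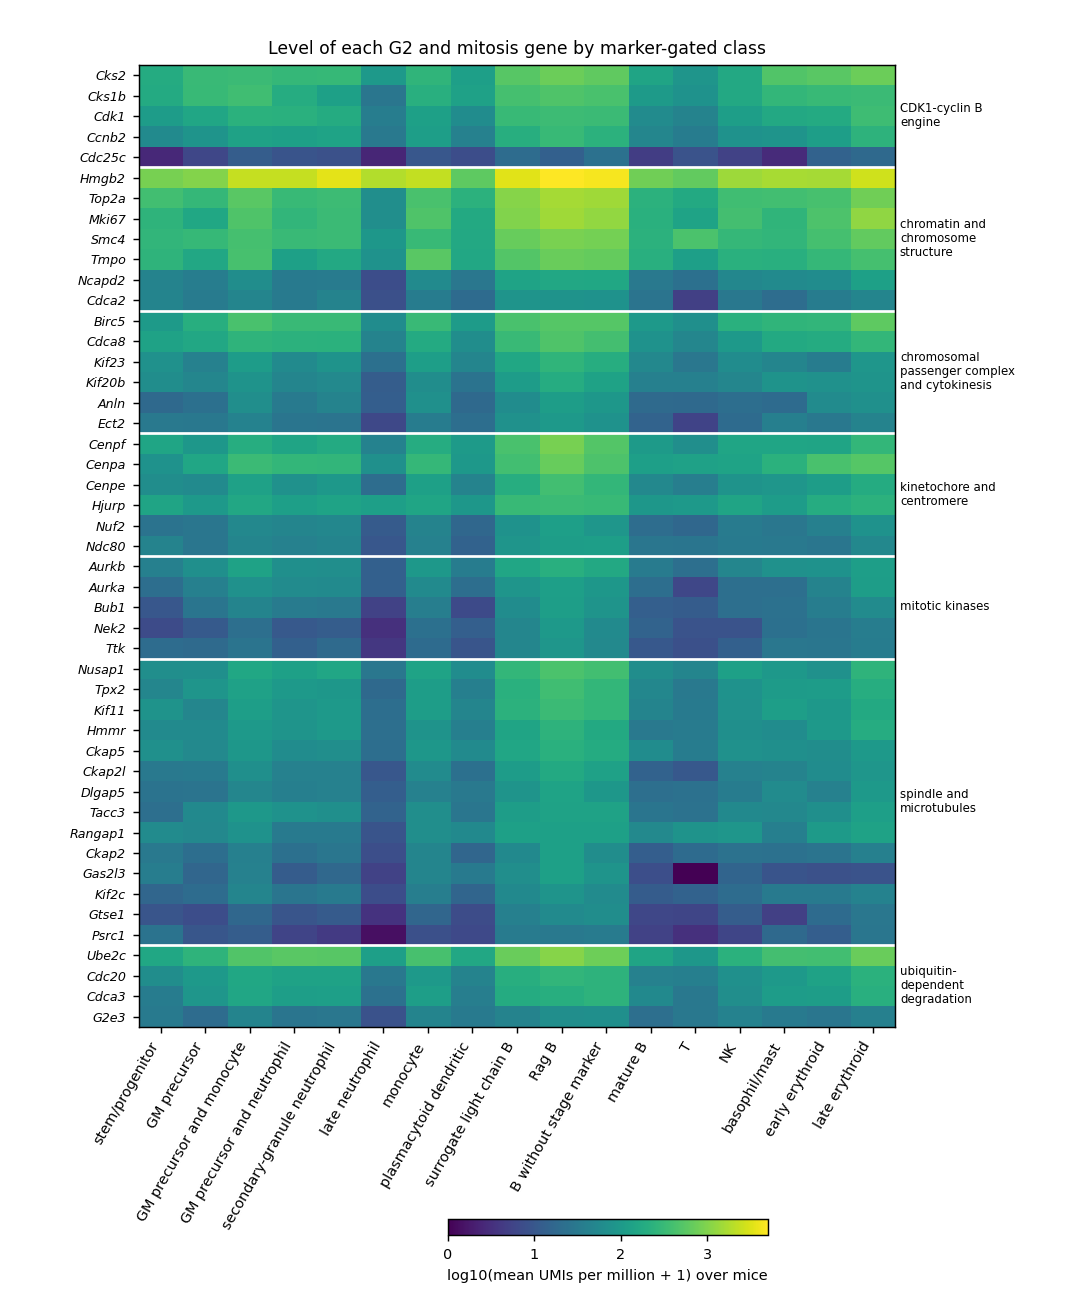
Mean level of each member (vertical axis, grouped by role) in each class (horizontal axis), as log10 of the mean CPM plus 1, with darker or lighter colour by the scale shown. Hmgb2 has the highest level among the members in each class with 9 mice, the B-lineage precursor and late-erythroid-like columns are high for most members, and the T-like and late-neutrophil-like columns are low.

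Among chromosome proteins, Hmgb2, a DNA-bending protein of the high mobility group, took 28.0% of all member UMIs. Its level was 4903 ± 1364 CPM in Rag-B-like cells and 1871 ± 173 in late-neutrophil-like cells (n = 9), where the latter lay within the 1647 to 2427 CPM of Hmgb2 in free RNA. There the proliferation marker Mki67, whose product coats mitotic chromosomes, stood at 65.7 ± 35.4 and Top2a, the topoisomerase that untangles sister chromatids, at 66.7 ± 30.5. Hmgb2 thus stood above both in the class where most members were lowest. In late-erythroid-like cells Mki67 stood at 1204 ± 133 CPM and Top2a at 780 ± 85.6. Tmpo, which encodes nuclear lamina proteins, was high in monocyte-like cells (557 ± 78.2 CPM) relative to secondary-granule-neutrophil-like cells (167 ± 14.2).

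The kinase engine was represented by Cdk1, cyclin B2 (Ccnb2) and the small Cdk-binding subunits Cks1b and Cks2. Cdk1 stood at 359 ± 31.5 CPM in late-erythroid-like and 36 ± 14.9 in late-neutrophil-like cells, and Ccnb2 at 245 ± 21.8 and 29.8 ± 16. Cks1b held 314 ± 48.6 CPM in granulocyte-monocyte-precursor-like cells, above its 127 ± 12.4 in secondary-granule-neutrophil-like cells, unlike most members. The 5 engine genes took 21.9% of member UMIs other than Hmgb2 in precursor-like cells and 12.0% in monocyte-like cells.

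Of the genes of ubiquitin-dependent degradation, Ube2c, the conjugating enzyme of the anaphase-promoting complex, stood at 1051 ± 552 CPM in Rag-B-like, 715 ± 101 in late-erythroid-like and 89.4 ± 101 in T-like cells. Cdc20, the coactivator of the same complex, stood at 275 ± 88.1, 229 ± 24.3 and 38.1 ± 37.0. Both had the same order over these 3 classes as the summed level. The Aurora kinases were less abundant. Aurka, of the spindle poles, held 123 ± 74.9 CPM in Rag-B-like cells, Aurkb, of the chromosomal passenger complex, held 212 ± 108, and Birc5, a partner of Aurkb, held 529 ± 138. Cenpa, the centromeric histone H3 variant, stood at 686 ± 194 CPM in Rag-B-like and 70.5 ± 30.4 in late-neutrophil-like cells. At the other end, Gas2l3, which links actin to microtubules, had 0 UMIs in the T-like cells of all 9 mice, and Cdc25c, the phosphatase that activates Cdk1, did not exceed a class mean of 23.3 CPM.

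The first set of comparisons asked how the members differed between classes of the same mice, with the mouse as a block. Between B-lineage cells with surrogate light chain genes and mature-B-like cells, all 44 members tested were higher in the former, with a median log2 fold change of 2.12, where 31.2% of all genes were called higher and the median of all genes was -0.04. The differences ran from 0.89 ± 0.20 for G2e3, a ubiquitin ligase, and 0.94 ± 0.15 for Rangap1 to 2.65 ± 0.30 for the spindle protein gene Ckap2 and 3.00 ± 0.27 for Gas2l3 (edgeR, largest adjusted p = 0.00042). Ckap5, a microtubule polymerase, Kif20b, a kinesin of cytokinesis, and Tmpo were also among the smallest, at 1.24, 1.24 and 1.35. Kif2c, Ect2 and Ckap2l, of microtubule ends, the cleavage furrow and the spindle, were among the largest, at 2.60, 2.57 and 2.56.

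Against Rag-B-like cells, 31 of 45 members were lower in cells with surrogate light chain genes, and none was called higher (27% of all genes were called lower and 28.4% higher; 33 members had an unadjusted p under 0.05). The median was -0.41. Among the largest differences were those of the kinetochore and centromere genes Cenpf at -0.73 ± 0.10 and Cenpa at -0.71 ± 0.08, with the kinase gene Nek2 at -0.69 ± 0.19. Ckap2 stood at -0.71 and Kif23, a kinesin of the central spindle, at -0.70. The median was -0.52 for kinetochore and centromere genes, of which 4 of 6 were lower. It was -0.51 for spindle genes (10 of 13) and -0.51 for passenger complex and cytokinesis genes (4 of 6). The medians of the other roles are not given here. The smallest differences, which were not called, were those of Cdca3 at -0.12, Hjurp and Cdk1 at 0.01, Cdca2 at 0.13 and Rangap1 at 0.19 ± 0.14. With only cells of at least 2000 UMIs and 1000 genes Hjurp and Cdk1 were called lower, at -0.47 and -0.41 (edgeR, adjusted p = 0.00080 and 0.0013). Ratios of mean CPM gave a median of -0.55, and Hjurp and Cdk1 then changed sign, to -0.10 and -0.12. With a stricter marker gate 1 member was lower and 5 were higher, and Cenpf stood at 0.05.

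In the erythroid lineage, all 46 members tested were lower in early-erythroid-like than in late-erythroid-like cells, with a median of -0.79, where 29.6% of all genes were called lower. Nusap1, which bundles spindle microtubules, was lower by the most (-1.82 ± 0.07), followed by the spindle gene Psrc1 (-1.48 ± 0.18), Mki67 (-1.46 ± 0.04), Kif23 (-1.39 ± 0.10) and Aurka (-1.37 ± 0.09). Mki67 stood between 395 and 530 CPM in the early class and between 918 and 1327 in the late class, and no mouse of one class reached the other. Cks1b, Kif20b, Hjurp, Cenpa and the checkpoint kinase gene Ttk were lower by the least, from -0.14 ± 0.05 to -0.37 ± 0.13. All 4 degradation genes, all 6 kinetochore and centromere genes and all 13 spindle genes tested were among the lower ones.

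Secondary-granule-neutrophil-like cells were compared with late-neutrophil-like cells, which carry later markers such as Cxcr2 and Mmp8. There, 44 of 45 members were higher in the former, with a median of 2.16, where 34.6% of all genes were called higher. Bub1, a spindle checkpoint kinase, differed most (2.70 ± 0.19), with Cdca2 at 2.56, Ttk at 2.48, Nusap1 at 2.39 and Cdca3 at 2.35. Hjurp was the exception, at 0.13 ± 0.06 (edgeR, adjusted p = 0.081). Hmgb2 at 0.83 ± 0.05, Tmpo at 1.10, Cks2 at 1.54 and Ckap5 at 1.61 were the next smallest.

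Granulocyte-monocyte-precursor-like cells were lower than secondary-granule-neutrophil-like cells in 42 of 44 members (40.9% of all genes were called lower), with a median of -1.30. Hmgb2 at -2.57 ± 0.08, Nusap1 at -1.97, Ube2c at -1.89, Mki67 at -1.85 and Cenpf at -1.82 differed most. Cks1b was higher (0.49 ± 0.08, where 39.1% of all genes were called higher), a call that was lost with only cells of at least 2000 UMIs and 1000 genes (0.02), and Rangap1 stood at -0.06 ± 0.12. These values depended on the scaling. The TMM factors lowered the differences by a median of 0.82 relative to ratios of mean CPM. Those ratios gave a median of -0.47, with 38 members lower and 6 higher. Rangap1, Ect2, Ncapd2, Cks2 and Aurkb were the members whose sign changed.

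Stem/progenitor-like cells, with at least 10 cells in 7 mice, were less unlike the precursor-like cells. Of 31 members tested, 4 were higher and 10 lower, where 19.3% and 19.5% of all genes were called, so the share called higher was below that of all genes. Tacc3, a spindle protein gene, was lower at -1.53 ± 0.41, with Cdca3 at -1.30, Cenpa at -1.16, Birc5 at -1.12 and Cks1b at -0.88. Kif23 was higher at 0.73 ± 0.30, Mki67 at 0.60 ± 0.17, Cenpf at 0.54 ± 0.23 and Tmpo at 0.43 ± 0.17. Cenpf lay at the limit of the call (edgeR, adjusted p = 0.0498), and Hjurp, at 0.51 ± 0.22, missed it (adjusted p = 0.0502). With the stricter gate or without the filter on low counts none of these 4 was called higher.

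Other cell cycle genes were read from lists that hold no member. The 49 further mitosis genes tested were all lower in early-erythroid-like than in late-erythroid-like cells (29.6% of all genes), led by Prc1, Smc2 and Ccna2 (-1.33, -0.93 and -1.03), and 38 of 43 S phase genes were lower and 1 higher, led by Rrm2 at -1.76. Between cells with surrogate light chain genes and Rag-B-like cells the lists differed in direction. There 26 of 36 S phase genes were higher in the former (28.4% of all genes), whereas 20 of 45 mitosis genes were lower (27% of all genes) and 3 higher. The ratio of the summed members other than Hmgb2 to the summed S phase genes was 1.69 in cells with surrogate light chain genes, 3.32 in Rag-B-like, 3.19 in secondary-granule-neutrophil-like, 3.07 in monocyte-like and 1.23 in late-erythroid-like cells. Of 11 cell cycle brakes tested, 9 were lower in granulocyte-monocyte-precursor-like than in secondary-granule-neutrophil-like cells, led by the inhibitor gene Cdkn2d at -3.69. In that pair 40.9% of all genes were called lower and the scaling moved the differences, as given above.

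The second set of comparisons asked whether the members differed between strains within a class. The comparisons share mice, so they are not independent of each other. Over 17 classes and 619 tests of members, NZB differed from NZW in 82 (13.2%), 64 higher and 18 lower, where 7.16% of all genes were called. NZBWF1 was lower than NZB in 59 and higher in none (3.03% of all genes were called in either direction). Against NZW it was higher in 8 and lower in 15 (0.951%), and it was lower than the midparent value, the mean log level of NZB and NZW, in 16 and higher in none (0.412%). These totals depended on the cells kept, the tool and single mice. With only cells of at least 2000 UMIs and 1000 genes they were 23, 17, 4 and 0, and with DESeq2 54, 35, 16 and 10. Without the 5% of cells with most UMIs the total between NZBWF1 and NZW was 9. Without NZB replicate 2 the calls in the 4 comparisons were 49, 22, 23 and 3, and without NZW replicate 3 they were 53, 58, 11 and 6. Without NZBWF1 replicate 2 the last 2 were 12 and 7, and the midparent total was 38 without NZB replicate 1 and 3 without NZBWF1 replicate 1. The midparent total was 32 with the replicate number as a block and 30 without the filter on low counts. Of the 180 calls, 121 were in monocyte-like and plasmacytoid-dendritic-like cells, and 35 of the remaining 59 were of Hjurp or Cdca3. Cdc25c, Nek2, Psrc1, Rangap1 and Ttk were called in no class.

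**Figure D3:**
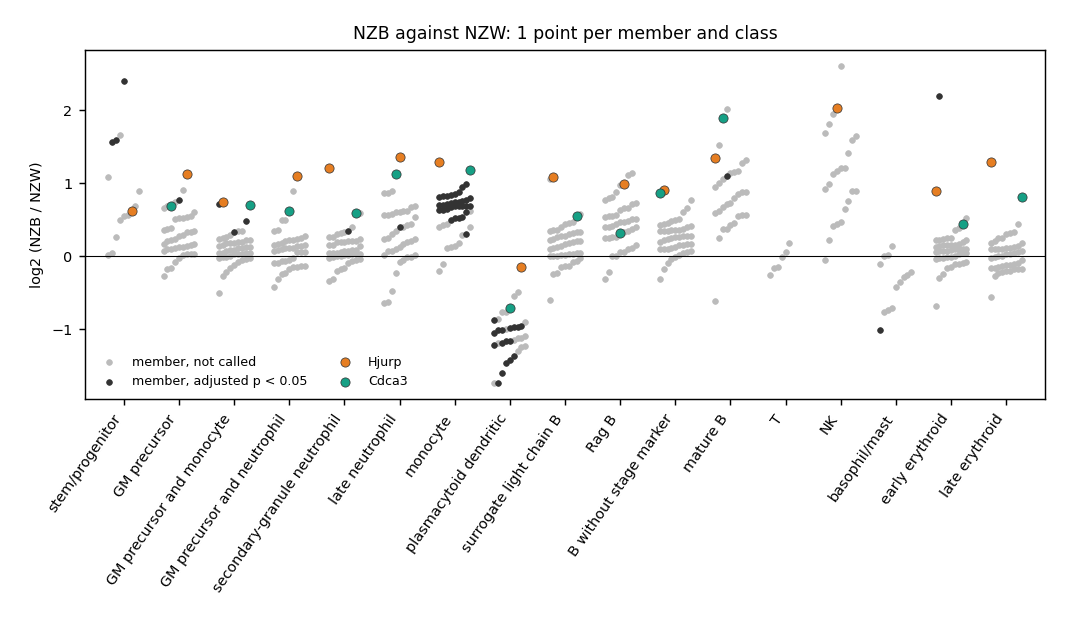
Log2 of NZB over NZW for each member (1 point) in each class (horizontal axis); dark points were called at an adjusted p under 0.05, grey ones were not, and Hjurp and Cdca3 have their own colours whether called or not. Monocyte-like cells hold called points above 0 and plasmacytoid-dendritic-like cells called points below 0, and Hjurp lies above 0 in 14 of the 15 classes where it was tested.

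In monocyte-like cells, 34 of 46 members were higher in NZB than in NZW and none was called lower (10.2% of all genes were called higher and 9.64% lower). The median of the members was 0.68 and that of all genes -0.00. Mki67 stood at 500, 839 and 621 CPM in the 3 NZB mice, at 368, 445 and 425 in NZW, and at 397, 371 and 397 in NZBWF1. Every NZB mouse lay above every mouse of the other strains, and NZB replicate 2 lay highest. Top2a stood at 429, 762 and 615 in NZB, 327, 390 and 401 in NZW, and 329, 356 and 330 in NZBWF1, in the same order. Every NZB mouse lay above every NZW mouse for 22 of the 46 members tested, where this held for 16.4% of all genes tested, and above every NZBWF1 mouse for 35, where it held for 12.0%.

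The called members came from every role. All 6 kinetochore and centromere genes, 5 of 6 passenger complex and cytokinesis genes, 4 of 5 engine genes, 5 of 7 chromosome genes, 9 of 13 spindle genes, 3 of 4 degradation genes and 2 of 5 kinases were higher in NZB. The 10 of smallest p were Hjurp (1.29 ± 0.15, edgeR adjusted p = 1.1e-08), Cdca3 (1.18 ± 0.15), the kinetochore motor gene Cenpe (0.88 ± 0.15), Nusap1 (0.75 ± 0.14), Ube2c (0.84 ± 0.14), Cks1b (0.68 ± 0.13), Cenpa (0.85 ± 0.15), Mki67 (0.67 ± 0.13), Tpx2 (0.81 ± 0.17) and Birc5 (0.63 ± 0.13). Tpx2 activates Aurora A on the spindle, and Cdca3 marks the mitotic inhibitor Wee1 for degradation. Hmgb2 differed less, at 0.31 ± 0.10, with 2218, 2951 and 2801 CPM in NZB and 2082 to 2204 in NZW. In cells of at least 2000 UMIs and 1000 genes its sign turned, to -0.09 (edgeR, adjusted p = 0.75), as did those of Kif23 and Cks2.

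NZBWF1 was lower than NZB in 39 of the 46 members, where 6.76% of all genes were called lower and 5.87% higher, and the median was -0.80. The 10 of smallest p were Cenpe (-1.24 ± 0.16, edgeR adjusted p = 1.4e-06), Cdca3 (-1.03), Nusap1 (-0.92), Cdk1 (-0.96), Hmmr (-1.35), Cks1b (-0.78), Tpx2 (-1.02), Mki67 (-0.79), Smc4 (-0.71) and Hjurp (-0.78). Hmmr, a spindle-associated hyaluronan receptor, stood at 77.8, 163 and 121 CPM in NZB, 59.8, 71.6 and 80.8 in NZW, and 37.3, 58.6 and 47.3 in NZBWF1, so that the lowest NZB mouse lay within the NZW range. Between NZBWF1 and NZW no member was called (edgeR; 0.538% of all genes were called higher and 0.35% lower; 6 of 46 members had an unadjusted p under 0.05, and DESeq2 called 0), with a median of -0.17. Against the midparent value 11 members were lower and none was higher (0.563% and 0.776% of all genes), among them Cenpe at -0.80 ± 0.15, Hmmr at -0.94, Cdk1 at -0.62, Nusap1 at -0.55 and Ect2 at -0.98.

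The same cells were read one by one after each was thinned to 1000 UMIs. Cells with at least 5 different members other than Hmgb2 made up 31.2, 62.4 and 43.3% of monocyte-like cells in NZB, 20.7, 23.3 and 22.1% in NZW, and 20.6, 18.6 and 20.3% in NZBWF1. Without thinning the means were 54.0, 27.2 and 26.2%. Every NZB mouse lay above every other mouse. For comparison, the share was 85.2 ± 3.2% in late-erythroid-like cells and 1.43% in plasma-like cells, whose median depth was 9992 UMIs against 1952 in monocyte-like cells.

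Depth moved with this difference. Median UMIs per monocyte-like cell were 2508 to 2843 in NZB, 1602 to 2064 in NZW and 1686 to 2392 in NZBWF1, and the 951 cells with 5 members had a median of 3008 UMIs against 1758.5 in the others. With only cells of at least 2000 UMIs and 1000 genes, the number of members called fell to 2 between NZB and NZW and to 1 between NZBWF1 and NZB. The summed level was then 11713 CPM in NZB, 11454 in NZW and 10417 in NZBWF1, where it had been 10740, 7439 and 6839. Among those cells the share with 5 members was 35.0, 72.0 and 51.6% in NZB, 34.3, 61.1 and 46.9% in NZW, and 26.4, 55.5 and 41.1% in NZBWF1. Over all mice NZB and NZW thus overlapped. In each strain replicate 1 lay lowest and replicate 2 highest. At each replicate number NZB lay above NZW, by as little as 35.0 against 34.3%, and NZW above NZBWF1. That limit kept 72.3 to 85.4% of monocyte-like cells in NZB, 30.4 to 54.6% in NZW and 27.9 to 71.2% in NZBWF1.

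Marker genes of neighbouring classes moved with it as well. The summed granulocyte-monocyte precursor markers, all 6 of which were detected in each strain, stood at 413 to 690 CPM in NZB monocyte-like cells, 223 to 247 in NZW and 180 to 228 in NZBWF1. Secondary granule markers, again 6 of 6, stood at 347 to 659, 219 to 247 and 123 to 280, and late neutrophil markers, 6 of 6, at 460 to 570, 266 to 379 and 344 to 382. The monocyte markers themselves were lower in NZB, at 4444 to 5086 against 5406 to 5780 and 5339 to 5758, as were the macrophage markers, 7 of 7, at 96.7 to 104, 131 to 144 and 167 to 185. The part of these in the result was not tested. Leaving out cells with a UMI of Treml4, Ace or Spn, which mark non-classical monocytes, left the counts at 37 and 39 members. Without NZB replicate 2, the highest mouse, 14 and 18 members were called. With the stricter marker gate 21 were higher in NZB than in NZW, and the ratio of the summed levels was 1.34 where it had been 1.44.

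**Figure D4:**
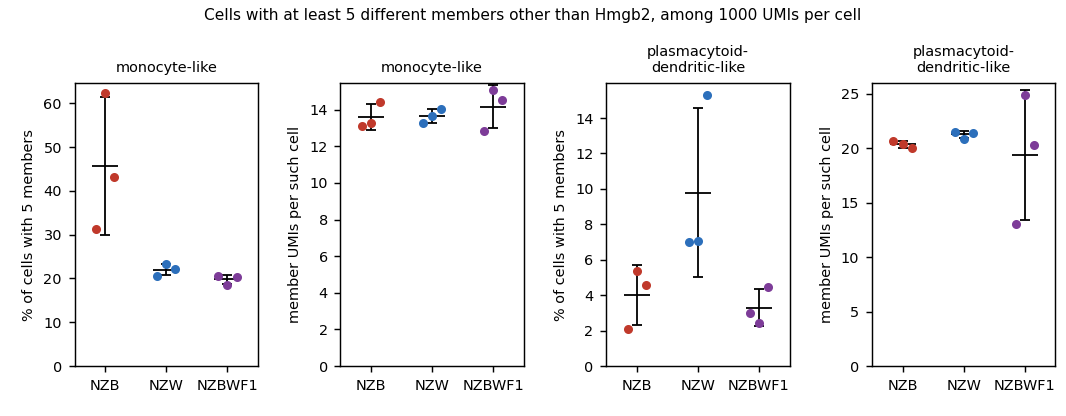
Percent of monocyte-like and plasmacytoid-dendritic-like cells with at least 5 different members other than Hmgb2 among 1000 UMIs per cell (left panel of each class), and the mean number of member UMIs in such a cell (right panel of each class); each point is 1 mouse, and the lines give the mean and SD of a strain. In monocyte-like cells the NZB mice lie between 31.2 and 62.4% and all others between 18.6 and 23.3%, whereas in plasmacytoid-dendritic-like cells the NZW mice lie highest, between 7.0 and 15.3%.

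In plasmacytoid-dendritic-like cells, marked by Siglech and Ccr9, the order of the strains was another one. Of 35 members tested, 17 were lower in NZB than in NZW and none was called higher (3.86% of all genes were called lower and 3.67% higher), with a median of -1.09. Hmgb2 stood at 394, 471 and 539 CPM in NZB, at 910, 740 and 1139 in NZW, and at 374, 394 and 538 in NZBWF1. Every NZW mouse lay above every other mouse. Nusap1 stood at 44.1, 45.9 and 47.8 in NZB, 98.8, 89.2 and 127 in NZW, and 31.2, 31.6 and 36.4 in NZBWF1, again without overlap. For Mki67 the values were 67.1, 132 and 178 in NZB against 151, 247 and 492 in NZW, which overlapped and were not called.

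The 10 members of smallest p between NZB and NZW were Hmgb2 (-0.96 ± 0.15, edgeR adjusted p = 3.8e-05), Cks1b (-1.02), Nusap1 (-1.16), Hmmr (-1.74), Cdk1 (-1.22), Aurkb (-1.60), Cenpa (-0.97), the condensin gene Smc4 (-0.87), the spindle motor gene Kif11 (-1.42) and Birc5 (-1.37). NZBWF1 was lower than NZW in 15 members and higher in none (1.36% and 0.838% of all genes). Hmmr at -2.73 ± 0.45, Nusap1 at -1.61, Hmgb2 at -1.04, Cks1b at -1.11, Cenpa at -1.27 and Kif23 at -1.79 led these. Without NZBWF1 replicate 2 the count was 9. Kif11 at -1.87, Cdk1 at -1.38, Aurkb at -1.79 and Birc5 at -1.62 completed the 10 of smallest p. NZBWF1 and NZB did not differ in any member by this test (edgeR; 1.39% of all genes were called higher and 1.09% lower; 2 of 35 members had an unadjusted p under 0.05, and DESeq2 called 0). Against the midparent value NZBWF1 was lower in 5 and higher in none (0.237% and 0.442% of all genes), namely Hmmr, Nusap1, Kif23, Hmgb2 and Cenpa.

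These levels were low. The summed level was 2418 CPM in NZB, 5118 in NZW and 2103 in NZBWF1, so that each mean lay below the range of free RNA. Thinned cells with 5 members made up 2.1, 5.4 and 4.6% in NZB, 7.0, 7.1 and 15.3% in NZW, and 3.0, 2.5 and 4.5% in NZBWF1. T-like cells, at a median of 1285.5 UMIs against 1704, held 4.78 ± 5.62%, with 0 to 15.6% by mouse, a range that covered the shares of all 3 strains. The 97 plasmacytoid-dendritic-like cells with 5 members had a median of 3062 UMIs against 1681.5 in the others, and median UMIs per cell were 1258.5 to 1929 in NZB, 1573 to 2026 in NZW and 1599 to 2432 in NZBWF1. Among cells with at least 2000 UMIs and 1000 genes the shares were 5.5, 63.3 and 27.7% in NZB, 11.4, 53.3 and 44.1% in NZW, and 3.2, 21.4 and 16.3% in NZBWF1. In each strain replicate 1 again lay lowest and replicate 2 highest. NZBWF1 lay lowest at each replicate number, and NZW lay above NZB at numbers 1 and 3 but not 2. Over all mice the strains overlapped, an NZB mouse lay highest, and a mouse held as few as 15 such cells. The summed level of these cells was 10149 CPM in NZB, 12454 CPM in NZW and 5541 CPM for NZBWF1. The number of calls depended on which cells and mice were kept. Without the 5% of cells with most UMIs 7 and 4 members were called, with summed levels of 802 CPM in NZB, 791 in NZBWF1 and 2671 in NZW, ratios of 3.33 and 3.38 where they had been 2.12 and 2.43, with the limit of 2000 UMIs and 1000 genes none, and without NZW replicate 3, the highest mouse, 5 and 6. Stem and progenitor markers, of which 2 to 4 of 7 were detected per strain, summed to 1193 to 1886 CPM in NZB, 140 to 163 in NZW and 299 to 472 in NZBWF1. Conventional dendritic markers, 5 of 6 detected, stood at 208 to 235, 359 to 536 and 280 to 378. The part of these in the result was not tested. Leaving out every cell with a UMI of stem and progenitor, precursor or B-lineage markers removed 762 of 1054 cells in NZB, 120 of 297 in NZW and 335 of 658 in NZBWF1 and gave 4 and 6 called members, with Hmgb2 at -1.06 and -1.20 and Cdk1 at -1.14 and -1.21, and leaving out those with precursor or B-lineage markers gave 22 and 16.

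The difference between NZB and NZW was itself tested between pairs of classes. For monocyte-like against plasmacytoid-dendritic-like cells, a pair chosen after the strain differences in both classes were seen and thus no independent evidence, all 43 members tested were higher in monocyte-like cells (31.0% of all genes; median 1.56). That difference was larger in NZB than in NZW for 35 of 43 members (4.14% of all genes), with a median of 1.67. Hmgb2 differed by 1.22 (edgeR, adjusted p = 1.2e-12), Hmmr by 2.48, Hjurp by 1.38 and Nuf2, a kinetochore gene, by 3.2. Over the other 6 pairs of classes 1 member was called, where 1.58% of all tests were called, Tmpo, whose difference between cells with surrogate light chain genes and mature-B-like cells was smaller in NZB (-1.01, edgeR adjusted p = 0.037, where 0.651% of all genes were called in that direction).

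Hjurp stood apart from the other members. Its product is the chaperone that deposits the Cenpa protein at centromeres, and the gene lies at chr1:88262471-88277633 on the minus strand (GRCm38). It was higher in NZB than in NZW in 12 of the 15 classes where it was tested, by 0.75 to 2.02. In late-erythroid-like cells it stood at 352, 348 and 317 CPM in NZB, 241, 250 and 239 in NZBWF1, and 149, 144 and 128 in NZW. In late-neutrophil-like cells, where 39 members were at their lowest, it stood at 171, 152 and 163 in NZB, 137, 119 and 121 in NZBWF1, and 71.2, 58.7 and 85.7 in NZW. In both classes the 3 strains did not overlap, and the hybrid lay between its parents. The same held in secondary-granule-neutrophil-like cells, with 179, 191 and 192 in NZB, 150, 126 and 136 in NZBWF1, and 83.0, 91.6 and 89.9 in NZW.

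For Hjurp, the log2 fold change between NZB and NZW was 1.29 ± 0.11 in late-erythroid-like cells (edgeR, adjusted p = 5.3e-14), 1.2 ± 0.11 in secondary-granule-neutrophil-like, 1.09 ± 0.15 in surrogate-light-chain-B-like and 0.90 ± 0.12 in early-erythroid-like cells. It was largest in NK-like cells, at 2.02 ± 0.37. The exceptions, which were not called, were Rag-B-like cells at 0.99 ± 0.33, stem/progenitor-like cells at 0.62 ± 0.47 and plasmacytoid-dendritic-like cells at -0.15 ± 0.24. NZBWF1 was lower than NZB in 7 classes, by -0.78 to -0.42, and higher than NZW in 6, by 0.47 to 0.79. Against the midparent value Hjurp was called in no class (range -0.67 to 0.17, median -0.01). Hjurp was also the member that differed least between secondary-granule-neutrophil-like and late-neutrophil-like cells.

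Cdca3, at chr6:124829547-124833701 on the plus strand, followed in fewer classes. It was higher in NZB than in NZW in 9 of 13, by 0.44 to 1.90, and lower in NZBWF1 than in NZB in 3. In late-erythroid-like cells it stood at 226, 255 and 318 CPM in NZB, 168, 148 and 157 in NZW, and 246, 232 and 202 in NZBWF1. There NZBWF1 overlapped NZB and was higher than NZW by 0.51 ± 0.12. Reads of both parent strains were aligned to 1 reference genome, and whether sequence differences between the strains change the counts of these genes was not tested.

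**Figure D5:**
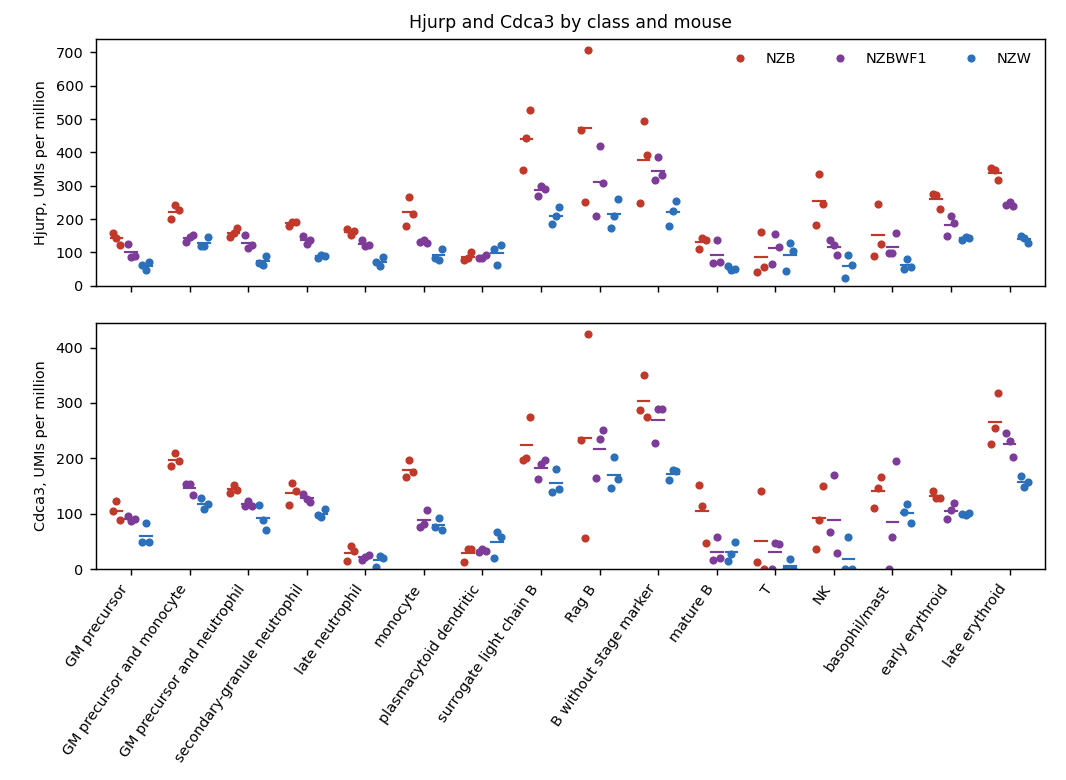
Level of Hjurp (upper panel) and Cdca3 (lower panel) in CPM, by class; each point is 1 mouse, coloured by strain, and each short line the mean of a strain. For Hjurp the NZB mice lie highest, the NZW mice lowest and the NZBWF1 mice between them in both erythroid-like classes and in secondary-granule-neutrophil-like and late-neutrophil-like cells, whereas in plasmacytoid-dendritic-like cells the strains overlap.

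The 24 other calls outside monocyte-like and plasmacytoid-dendritic-like cells were scattered over classes. In these 15 classes, over all members, NZB was higher than NZW in 30 of 538 tests and lower in 1 (2.87% and 2.95% of all genes), and NZBWF1 was lower than NZB in 20 (1.12%) and higher than NZW in 8 (0.455%). Without Hjurp and Cdca3, 514 tests remained, of which 11 were higher (2.14%) and 1 lower in NZB than in NZW, a share not above that of all genes. NZBWF1 was then lower than NZB in 12 (2.33%) and higher than NZW in 0. For NZB against NZW the fitted median of all members tested lay above 0 in these classes except T-like (-0.08) and basophil/mast-like cells (-0.28). Ratios of mean CPM gave medians of -0.05 in secondary-granule-neutrophil-like cells, where the fit gave 0.07, and 0.03 in T-like cells. The fitted median was 1.12 in NK-like cells (22 of 23 members above 0) and 0.85 in mature-B-like cells (30 of 31). In Rag-B-like cells it was 0.45 (42 of 44) and in late-erythroid-like cells 0.03 (26 of 46). Members of a class share cells and mice, so these counts are not independent. In stem/progenitor-like cells Cdk1 (2.40 ± 0.74), Ube2c (1.60 ± 0.47) and Cenpf (1.56 ± 0.48) were higher in NZB than in NZW (1.2% of all genes in that class). Only 2 NZB mice, with 31 and 13 cells, entered that comparison, against 3 NZW mice. In precursor-like cells that also passed the monocyte list, 5 members other than Hjurp and Cdca3 were lower in NZBWF1 than in NZB (2.6% of all genes in that class), namely Aurka (-0.66), Hmmr (-0.58), Cenpe (-0.49), Cenpa (-0.38) and Mki67 (-0.37). Between NZBWF1 and NZB, Hmmr stood at -0.55 in both erythroid-like classes. Gas2l3 was higher in NZB than in NZW in early-erythroid-like cells by 2.19 ± 0.52, at levels of only 9.64 to 13.3 and 1.57 to 3.74 CPM. Ube2c was lower in NZB in basophil/mast-like cells (-1.01 ± 0.31). Hmgb2 was higher in NZB in late-neutrophil-like cells by 0.40 ± 0.12. Between these strains there, the median of the 41 members tested was 0.31 in the fit and 0.02 by ratios of mean CPM.

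Across 165 sums of a class and a mouse, which share libraries and depth, the genes outside the list whose log level followed the summed members most closely were Ube2s (Pearson r = 0.93), H2afz (0.91), Fbxo5 (0.89), Hist1h1b (0.89) and Calm3 (0.89), of 8231 genes compared. Ube2s and Fbxo5 encode an enzyme and an inhibitor of the anaphase-promoting complex, H2afz and Hist1h1b encode histones, and Calm3 encodes calmodulin. Among the members, Gas2l3 (0.58) and Rangap1 (0.59) followed the sum of the others least.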

How the data were processed

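Bone marrow cells of 9 mice were measured on the 10x Genomics 3′ platform. The authors made the deposited UMI counts with Cell Ranger 3.1.0, and merged the libraries into 1 table, in which the number after a barcode was read as the library's line in the deposited list of merged libraries. The deposited values are whole UMI counts, and whether read depth was equalised between libraries at the merge is stated in none of the sources read. Cells were assigned by marker genes, at whole UMI counts, and 4402 cells (11.3%) that passed lists of unlike classes were left out. No doublet caller was run. Sums of UMIs over the cells of a class in a mouse were tested with edgeR 4.0.16 in R 4.3.3 (TMM factors, filter on low counts, robust quasi-likelihood fit, Benjamini-Hochberg adjustment over all genes tested). Class comparisons had the mouse as a block and strain comparisons had none. Alternatives used DESeq2 1.42.0, RLE factors, other gates and cell limits, and each mouse left out. Sums were made with Python 3.11.15, numpy 2.4.6, pandas 2.3.3 and scipy 1.17.1. For the share of cells with members, each cell was thinned to 1000 UMIs. The test was checked on simulated counts in 3 classes, which did not include monocyte-like or plasmacytoid-dendritic-like cells. Of 200 genes changed 2-fold, it called 95 in B-lineage cells without a stage marker, 174 in late-erythroid-like and 175 in secondary-granule-neutrophil-like cells. It also called 6, 13 and 6 unchanged genes.

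The members, the marker lists and the other gene lists were chosen with earlier results of these data known. Named genes were 14 members for levels, at most 10 called members by smallest p per strain comparison, and the 5 largest and 5 smallest differences between classes; the other names were chosen after their values were seen. The p-values measure the spread between the mice of these libraries. Intervals and shares cover no variation beyond these mice.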

Additional observations from a re-analysis of the deposited data

Results flagged for a closer look

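A test of the interaction of strain with class called 1 of 255 tests of members over 6 pairs of classes (0.392%, against 1.58% of all tests), a share not above that of all genes. The member was Tmpo, between surrogate-light-chain-B-like and mature-B-like cells (-1.01, edgeR adjusted p = 0.037). Tmpo stood at 250, 511 and 226 CPM in the mature-B-like cells of the 3 NZB mice, against 141, 120 and 189 in NZW, and NZB replicate 2 was far above the others. In cells with surrogate light chain genes the values were 421, 610 and 569 in NZB and 479, 530 and 464 in NZW, which overlapped. The call was lost (0 members) without any one of NZB replicates 1 and 3, NZW replicates 1 and 2 and NZBWF1 replicate 3. Monocyte-like and plasmacytoid-dendritic-like cells were paired after their strain differences had been seen to have opposite signs, so the test of that pair is no independent evidence. It called 35 of 43 members (4.14% of all genes), whose difference between these classes was in each case larger in NZB, and 22 without NZW replicate 3.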

How the results depend on the processing

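Over all classes, 82 calls between NZB and NZW became 54 with DESeq2 and 23 with the limit of 2000 UMIs and 1000 genes per cell, under which 14 classes could be tested. The 59 between NZBWF1 and NZB became 35 and 17. The 23 between NZBWF1 and NZW became 4 with that limit and 9 without the 5% of cells with most UMIs. The 16 against the midparent value became 10 with DESeq2, 30 without the filter on low counts, 32 with the replicate block and 0 with the limit. In monocyte-like cells, 34 and 39 became 2 and 1 with the limit, and 34 became 21 with the stricter gate. The summed difference in CPM fell there from 3301 to 259 (NZB minus NZW) and moved from -3900 to -1296 (NZBWF1 minus NZB), and that of the share of cells from 23.6 to 5.38 and from -25.8 to -11.8 percentage points. In plasmacytoid-dendritic-like cells, 17 became 11 with DESeq2, 0 with the limit, 7 without the 5% of cells and 4 without cells holding markers of stem, precursor or B-lineage cells, and 15 became 0, 4 and 6 in the last 3. The summed differences there, -2701 (NZB minus NZW) and -3016 (NZBWF1 minus NZW), became -4366 and -4608 with the stricter gate, and -2305 and -6913 with the limit, where the share differences moved from -5.77 to -4.11 and from -6.49 to -22.6. Without the 5% of cells with most UMIs they were -1869 and -1880, at larger ratios of the strain means (3.33 and 3.38) than before (2.12 and 2.43). The cause of these changes was not tested.

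Among class comparisons, surrogate-light-chain-B-like against Rag-B-like cells gave 5 members higher with the stricter gate, and 20 lower without the filter and 1 with that gate. Precursor-like against secondary-granule-neutrophil-like cells gave 0 higher with the limit. Stem/progenitor-like against precursor-like cells gave 1 higher with DESeq2, 2 with RLE factors and 0 without the filter, with the gate or without the 5% of cells, and 17 lower without the filter and 6 with the limit. Signs turned with the limit for Kif23 (-0.070), Hmgb2 (-0.087) and Cks2 (-0.0068) between NZB and NZW and for Cdc20 (0.0094) and Kif23 (0.064) between NZBWF1 and NZB, in monocyte-like cells. Against Rag-B-like cells they turned for Cenpf (0.047) and Cdca3 (0.38) with the gate, for Cdca3 (0.023) without the filter, for Hjurp (-0.47), Cdk1 (-0.41), both then called lower, and Cdca2 (-0.41) with the limit, and for Cdk1 without a mouse block (-0.011) and without the 5% of cells (-0.022). With mice left out, Hjurp ran from -0.048 to 0.070 and Cdk1 from -0.062 to 0.061. Rangap1 turned against secondary-granule-neutrophil-like cells with RLE factors (1.1e-05) and without NZW replicate 3 (0.017), and ran from -0.12 to 0.017 with mice left out, and Tmpo in stem/progenitor-like cells without the filter (-0.033).

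With each mouse left out in turn, the totals ran from 49 to 90, 22 to 72, 11 to 26 and 3 to 38. In monocyte-like cells the counts ran from 14 to 35 and 18 to 40, and in plasmacytoid-dendritic-like cells from 5 to 20 and 6 to 18. The class comparisons ran from 41 to 45, 27 to 36 (lower, against Rag-B-like cells), 42 to 43, 44 to 44, 45 to 46, and 1 to 4 higher and 7 to 12 lower for stem/progenitor-like cells. Of those 4, 1 was called without NZB replicate 3 and 2 without replicate 3 of NZBWF1 or NZW. The interaction counts ran from 0 to 4 and from 22 to 35, with 4 and 22 without NZW replicate 3.

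The labels number the mice 1 to 3 in each strain. Deviations from the strain means were correlated between same-numbered mice in some classes. In late-neutrophil-like cells the pairs numbered 1 or 2 stood at 0.33 to 0.42, and those numbered 3 at -0.03 to 0.02. In B-lineage cells without a stage marker they stood at 0.07 to 0.17 and -0.03 to 0.01. In monocyte-like cells all pairs stood at -0.05 to 0.03. The main strain tests carry no such block, and what the number marks was not given. With the replicate block the totals were 98, 66, 33 and 32. The counts were then 34 and 39 in monocyte-like and 23 and 21 in plasmacytoid-dendritic-like cells. Leaving out cells with markers of non-classical monocytes or of those lineages was chosen after seeing the data.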

Other observations

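Lists of other cell cycle genes, none of which holds a member, were counted in the same 2 classes. In monocyte-like cells 28 of 50 further mitosis genes were higher in NZB than in NZW, against 10.2% of all genes, as were 7 of 39 S phase genes and 2 of 11 cell cycle brakes. Of the brakes 3 were lower, against 9.64% of all genes. Between NZBWF1 and NZB, 34 of the mitosis genes and 9 of the S phase genes were lower in NZBWF1, against 6.76%. In plasmacytoid-dendritic-like cells 11 of 25 mitosis genes were lower in NZB than in NZW, against 3.86% of all genes, as were 2 of 29 S phase genes and 2 of 10 brakes. In NZBWF1 against NZW, 10, 4 and 2 were lower, against 1.36%. For S phase genes and brakes these are few genes, and no change of those lists is read from them.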
